A study of Mus musculus with 2 samples.

Results

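The transcription factors Zeb1, Zeb2, Snai1, Snai2, Twist1, Twist2 and Prrx1 were followed in single cells of 2 mouse mammary tumors. They were taken as a fixed set of 7 gene symbols out of the 32285 genes in the matrices, with no use of their measured values. Each of 2 mice of the genotype Krt8-CreERT/Rosa26-mTmG/MMTV-PyMT gave 1 library. In this model the MMTV promoter drives the polyoma middle T oncogene in the mammary epithelium, and a tamoxifen-inducible Cre is made in cells that use the promoter of the luminal keratin Krt8. Cells that once had active Cre, and all their descendants, switch to green fluorescent protein (GFP). Both mice carried all 3 alleles and received tamoxifen at 150 mg/kg, 6 days in all, during weeks 5 and 6 of age, and tumors were taken at 1.5 cm3. Live GFP-positive cells negative for CD31 (endothelial) and CD45 (leukocyte) were sorted, so the data hold no untreated, unlabelled or tumor-free group, and the mouse was the replicate (n = 2).

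These factors act in epithelial-mesenchymal transition (EMT), in which epithelial cells lose their junctions and turn on genes of motile, matrix-producing cells. Zeb1 and Zeb2 are zinc-finger homeobox proteins and Snai1 and Snai2 are zinc-finger proteins, all of which bind E-box sequences and are best known as repressors of E-cadherin (Cdh1). Twist1 and Twist2 are basic helix-loop-helix (bHLH) proteins that pair with partners such as Tcf3 and Tcf12, and Prrx1 is a paired-type homeobox protein of mesenchyme. All of them are also used by normal stromal cells such as fibroblasts, and Snai2 is in addition a factor of the basal layer of the mammary gland.

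On GRCm38, GENCODE vM21 places Prrx1 at chr1:163245119-163313710 (minus strand) and Twist2 at chr1:91801461-91848028 (plus strand). Zeb2 lies at chr2:44983632-45117395 (minus strand) and Snai1 at chr2:167538195-167542814 (plus strand). Twist1 lies at chr12:33957671-33959829 and Snai2 at chr16:14705852-14709385, both on the plus strand. Zeb1 was matched by its symbol and gene identifier as the others were.

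The authors' annotation placed 3829 cells of mouse 1 and 5330 cells of mouse 2 in 18 clusters, with a median of 15014 and 9470 unique molecular identifiers (UMIs, 1 per captured transcript) per cell. Cluster 6, which the authors describe as lumino-basal, had 260 cells in mouse 1 (3410589 UMIs) and 167 in mouse 2 (1590251 UMIs). Levels are CPM, a gene's share of the summed UMIs of a cluster in a mouse, scaled to 1000000. The kit reads the 3' ends of transcripts, so levels of a gene are compared between cells and not between genes. All 7 factors were sparse: over all annotated cells there were 2283 UMIs of Snai1, 1064 of Twist1, 1043 of Zeb2, 220 of Snai2, 200 of Prrx1, 177 of Zeb1 and 14 of Twist2. Of the barcodes, 20 occurred in both matrices and 9 were annotated in both mice. Exact Clopper-Pearson 95% intervals are given for shares of cells, and they cover counting error only.

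Cluster 6 had the highest mean level of all 7 factors among the 18 clusters, but the factors differed in how far they spread beyond it. Prrx1 was the most restricted, with 88% of its UMIs in cluster 6 (90.4% in mouse 1 and 84.7% in mouse 2), a cluster of 4.66% of the cells. Of the Twist2 UMIs 78.6% lay there, of Snai2 70.9% and of Zeb1 61.6%. For Twist1 the share was 30.2%. For Zeb2 it was 23.9%, with the mice apart (18.2% in mouse 1 and 59.9% in mouse 2). Snai1 was spread over the tumor, with 8.45% of its UMIs in cluster 6.

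In cluster 6, Prrx1 reached 30.5 CPM in mouse 1 and 45.3 in mouse 2. Next came cluster 15, with 1.64 and 13.6 CPM, and in the other 16 clusters Prrx1 reached at most 1.69 and 0.867 CPM, with no UMI in 14 of them in mouse 1 and 12 in mouse 2. Cluster 6 was above cluster 15 in both mice.

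Snai2 showed the same separation, at 28.4 and 37.1 CPM in cluster 6 and 0.940 and 10.2 CPM in cluster 15. The other 16 clusters had between 0 and 2.85 CPM in mouse 1 and between 0 and 5.71 in mouse 2.

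Zeb1 stood at 21.1 and 23.3 CPM in cluster 6 and at 5.17 and 23.8 CPM in cluster 15, so that clusters 6 and 15 differed in mouse 1 and not in mouse 2. The cluster 15 value of mouse 2 rests on 7 UMIs in 17 cells. Elsewhere Zeb1 reached at most 3.66 CPM (cluster 11) in mouse 1 and 1.90 CPM (cluster 5) in mouse 2.

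Zeb2 stood at 48.1 and 53.5 CPM in cluster 6 and at 77.7 and 20.4 CPM in cluster 15, and the order of these clusters turned between the mice. In the other 16 clusters the mice were far apart. Cluster 10 held 40.9 CPM in mouse 1 and 3.59 in mouse 2, and the median of the 16 clusters was 8.92 and 0.773 CPM.

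Twist1 stood at 74.5 and 42.1 CPM in cluster 6 and at 49.3 and 33.9 CPM in cluster 15. Cluster 6 was higher in each mouse, but the lower mouse of cluster 6 lay below the higher mouse of cluster 15. Cluster 10 again split the mice, here the other way, with 1.05 CPM in mouse 1 and 22.3 in mouse 2.

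Snai1 stood at 42.5 and 30.2 CPM in cluster 6. Every other cluster held Snai1 UMIs in both mice, with 1.05 to 38.1 CPM in mouse 1 and 3.90 to 43.6 CPM in mouse 2. Cluster 6 was the highest of the 18 clusters in mouse 1 and the fourth in mouse 2, where clusters 2 (43.6 CPM), 8 (41.1 CPM) and 1 (31.6 CPM) lay above it. The leading clusters 6, 8, 2 and 7 did not differ beyond the spread of the mice.

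Twist2 was near the limit of detection, with 2 UMIs in 1 cell of cluster 6 in mouse 1 and 9 UMIs in 4 cells in mouse 2, or 0.586 and 5.66 CPM. Outside cluster 6 there were no UMIs in mouse 1 and 3 in mouse 2.

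**Figure D1:**
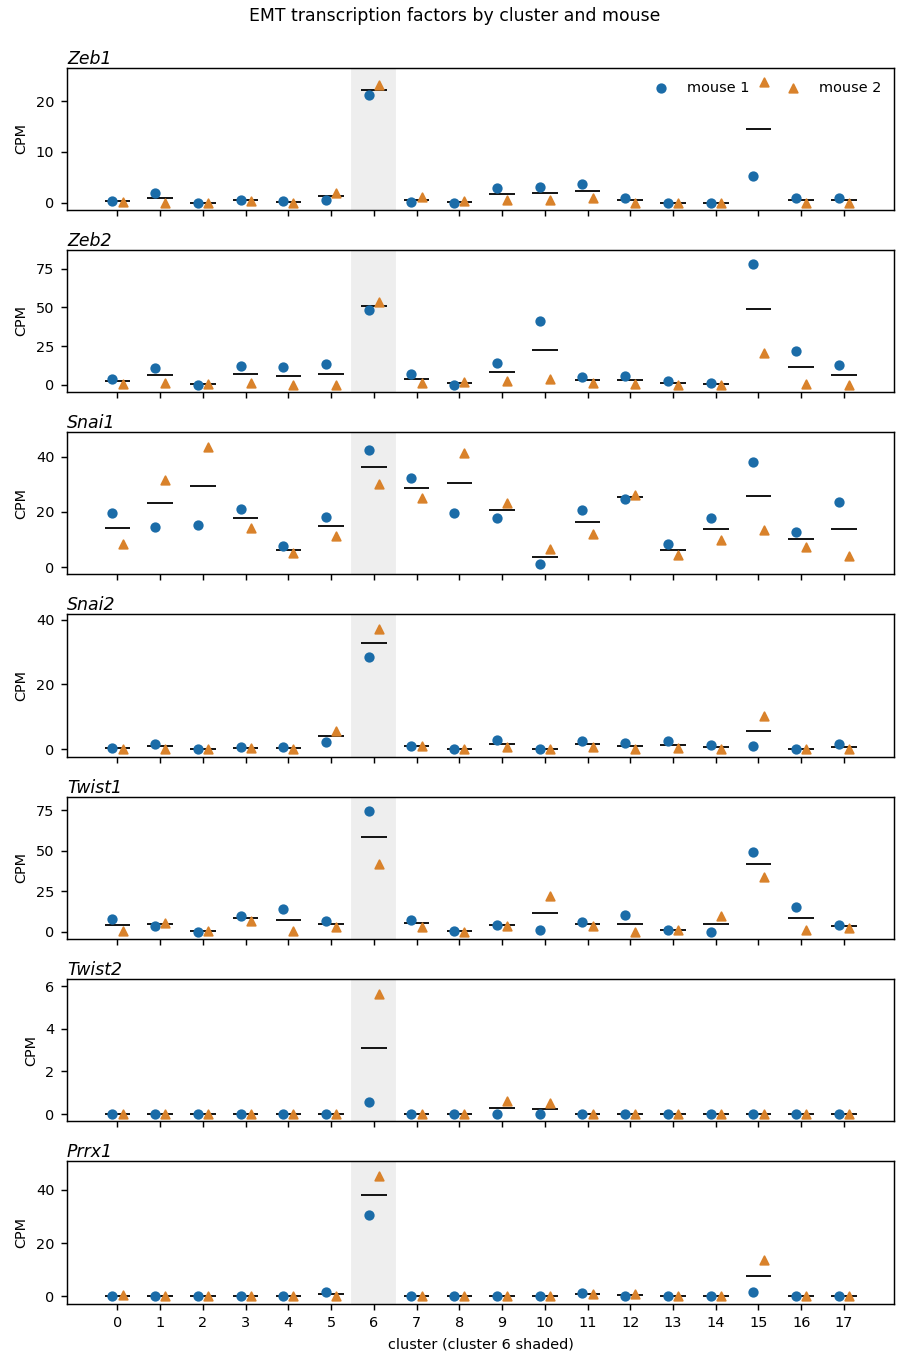
Level of each EMT transcription factor (CPM of summed UMIs, vertical axis) in each of the 18 clusters (horizontal axis) for mouse 1 (circles) and mouse 2 (triangles), with the mean of the mice as a bar. Prrx1 and Snai2 stand out in cluster 6 in both mice, Zeb1, Zeb2 and Twist1 also rise in cluster 15, and Snai1 is found in all clusters.

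Cluster 6 was first set against cluster 13, the lineage-restricted luminal cells of the study, to ask in which of the factors lumino-basal and luminal cells of the same tumors differ. Cluster 13 (73 and 192 cells) was nearly free of these transcripts. Zeb1, Prrx1 and Twist2 were at 0 there in both mice, at a depth of 1219562 UMIs in mouse 1 and 2417170 in mouse 2. With a limit of 3 UMIs over the group, Prrx1 was at least 42.7-fold, Zeb1 at least 26.4-fold and Twist2 at least 2.67-fold higher in cluster 6. Zeb2 had 3 UMIs there, all in 1 cell of mouse 1, against 249 in cluster 6, which is 60.4 times as many per UMI sequenced (95% interval for counting error 20.4 to 295). Twist1 had 3 UMIs against 321 (ratio 77.8, interval 26.4 to 379) and Snai2 had 4 against 156 (28.4, interval 10.9 to 105). Snai1 was at 8.20 and 4.55 CPM in cluster 13, from 10 UMIs in 3 cells and 11 UMIs in 5 cells, and how much of this is free RNA from other cells was not tested.

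All 6 factors that passed the low-count filter were higher in cluster 6 than in cluster 13 at an adjusted p under 0.05. Of all 9794 genes tested, 28.4% passed in either direction, 16.3% as higher and 12.1% as lower in cluster 6. The log2 fold change was 5.82 for Twist1 (standard error (SE) 0.54, adjusted p = 1.1e-10), 5.70 for Zeb2 (SE 0.60, 2.4e-09), 4.69 for Snai2 (SE 0.59, 7.6e-08) and 2.45 for Snai1 (SE 0.41, 1.5e-05). For Prrx1 and Zeb1, fitted values of 9.39 and 8.55 depend on how a count of 0 is handled. The median of the 6 was 5.76, or 5.07 with Prrx1 and Zeb1 set to their bounds, against 0.0086 over all genes tested. The clusters were made by the authors from these same transcripts, in both mice together. The p-values are thus not independent evidence that the clusters differ, and the fold changes describe the size of the difference. DESeq2 did not call Prrx1 (adjusted p = 0.27). The sizes rest on few cluster 13 UMIs: without the cluster 13 sum of mouse 1 Zeb2 was at 9.92 and Snai2 at 6.02, and without that of mouse 2 they were at 4.21 and 3.57. With cells of other types left out, Prrx1 was at 7.55 and Zeb2 at 4.42, all 5 testable factors passed, and Zeb1 could not be tested. Without the cluster 6 sum of mouse 2, and then without a mouse block, none of the 6 passed (adjusted p from 0.065 for Twist1 to 0.094 for Zeb2), and without that of mouse 1 Snai1 (0.077), Zeb1 (0.052) and Zeb2 (0.052) did not.

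Shares of cells gave the same order of groups at equal depth. After each cell was thinned to 2000 UMIs, Zeb2 was found in 8.57% (21 of 245 cells) and 13.4% (21 of 157) of cluster 6 cells, against 1 of 72 and 0 of 183 cells of cluster 13. Prrx1 was found in 5.71% and 8.28%, Zeb1 in 5.31% and 5.10%, Snai2 in 4.08% and 5.10%, Twist1 in 9.39% and 5.10% and Snai1 in 9.80% and 8.28% of the thinned cluster 6 cells. In cluster 13 each factor was found in at most 1 thinned cell per mouse. Before thinning, cells of cluster 6 had a median depth of 12186 and 8146 UMIs and those of cluster 13 one of 15278 and 11818.5, so the cells with fewer transcripts of these factors were the deeper ones. Unthinned shares in cluster 6 ran from 13.8% (Snai2, mouse 2) to 28.8% (Twist1, mouse 1) for the factors other than Twist2.

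The second comparison set cluster 6 against all annotated cells outside clusters 6 and 13 (3496 and 4971 cells), and it shares the cluster 6 sums with the first. Its p-values have the same limit, as the clusters were made from these same transcripts. Prrx1 was the factor that separated the groups most, with 30.5 and 45.3 CPM in cluster 6 and 0.204 and 0.245 CPM in the other tumor cells. The fitted log2 fold change of Prrx1 was 7.32 (SE 0.33, adjusted p = 2.5e-06). Snai2 stood at 0.778 and 0.340 CPM in the other tumor cells and Zeb1 at 0.907 and 0.359, with log2 fold changes of 5.85 (SE 0.41, adjusted p = 3.5e-05) and 5.14 (SE 0.44, 9.6e-05). For these 3 factors the groups lay far apart in each mouse.

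Zeb2 and Twist1 were present in the other tumor cells at levels that differed between the mice. Zeb2 stood at 13.6 CPM in mouse 1 and 1.08 in mouse 2, and Twist1 at 10.6 and 3.12 CPM. This group includes cluster 15, with 191 cells in mouse 1 and 17 in mouse 2. Cluster 15 held 331 and 6 UMIs of Zeb2 and 210 and 10 of Twist1. Over the 16 clusters other than 6 and 15, the median was 8.92 and 0.773 CPM for Zeb2 and 5.19 and 2.73 CPM for Twist1. The part of cluster 15 in the difference between the mice was not tested. The log2 fold changes were 3.46 for Zeb2 (SE 0.73, adjusted p = 0.012) and 3.20 for Twist1 (SE 0.26, 7.6e-05). Snai1 stood at 21.5 and 17.1 CPM in the other tumor cells, and its log2 fold change of 0.88 (SE 0.21, adjusted p = 0.020) was the smallest of the 6.

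All 6 testable factors were thus higher in cluster 6, against 18.8% of 14350 genes that passed in either direction 12.1% that passed as higher and 6.63% as lower. Their median log2 fold change was 4.30, against -0.060 over all genes tested. Without the mouse block, which pairs sums of the same animal, Zeb2 (adjusted p = 0.21), Snai1 (0.16) and Twist1 (0.060) did not pass, while Prrx1, Snai2 and Zeb1 did. With DESeq2 Snai1 did not pass (0.075), and Twist2, which DESeq2 did test, was higher in cluster 6 (log2 fold change 6.84, adjusted p = 0.00057). That call for Twist2 rests on 11 UMIs in cluster 6 against 3 in the other tumor cells. All cluster 6 cells with a Twist2 UMI carried fibroblast genes. With single sums left out, Snai1 failed each time (0.15 to 0.55). Twist1 failed without either cluster 6 sum (0.13 without mouse 1, 0.067 without mouse 2) and without the other tumor cells of mouse 2 (0.052), and Zeb2 failed in the same fits (0.28, 0.35 and 0.056).

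**Figure D2:**
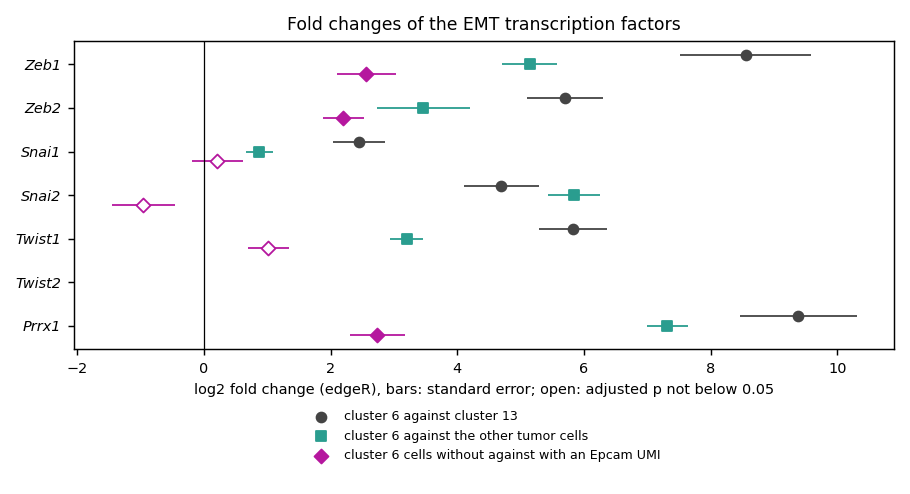
Log2 fold change (horizontal axis) of each EMT transcription factor in the 3 comparisons, with standard errors as bars and open symbols where the adjusted p was not below 0.05. Twist2 did not pass the low-count filter, and the cluster 13 values of Zeb1 and Prrx1 are fitted against a count of 0. Snai2 is high in cluster 6 as a whole but has a negative value, which did not pass, in its cells without an Epcam UMI.

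Within cluster 6, cells were divided by whether they held a UMI of Epcam, the epithelial cell adhesion molecule. Cells without an Epcam UMI numbered 73 in mouse 1 and 37 in mouse 2, with a median of 5907 and 6805 UMIs, and cells with Epcam numbered 187 and 130, with a median of 14058 and 8260.5 UMIs. Of the factors, Zeb1, Zeb2 and Prrx1 were higher in cells without Epcam past the threshold. Zeb2 stood at 145 and 143 CPM without Epcam and at 29.1 and 34.9 CPM with it (fitted log2 fold change 2.20, SE 0.32, adjusted p = 0.0014). Prrx1 stood at 127 and 117 CPM without Epcam and at 11.6 and 30.4 with it (log2 fold change 2.74, SE 0.43, adjusted p = 0.0021). Zeb1 stood at 53.8 and 95.2 CPM without Epcam and at 14.7 and 8.35 with it (log2 fold change 2.56, SE 0.46, adjusted p = 0.0045). For these 3 factors both mice were higher without Epcam.

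Twist1 stood at 122 and 76.9 CPM without Epcam and at 65.2 and 34.9 CPM with it, higher without Epcam in both mice, but its log2 fold change of 1.02 (SE 0.32, adjusted p = 0.079) did not pass. Whether the factors differ from each other in this was not tested. Snai1 stood at 44.8 and 36.6 CPM without Epcam and at 42.1 and 28.9 with it (log2 fold change 0.21, SE 0.40, adjusted p = 0.85). Snai2 was the only factor with lower values without Epcam, at 21.5 and 11.0 CPM against 29.8 and 42.5, and that difference did not pass either (log2 fold change -0.96, SE 0.50, adjusted p = 0.31). Twist2 had 5 UMIs in cells without Epcam and 6 in cells with it. So 3 of the 6 testable factors were higher without Epcam, against 10.0% of 8076 genes that passed in either direction and 6.43% that passed as higher. Their median log2 fold change was 1.61, against -0.058 over all genes tested.

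At 2000 UMIs per cell, Zeb1 was found in 7 of 59 cells without Epcam (11.9%, interval 4.91 to 22.9%) and 6 of 186 with it (3.23%, 1.19 to 6.89%) in mouse 1. In mouse 2 it was found in 6 of 30 (20.0%, 7.71 to 38.6%) and 2 of 127 cells (1.57%, 0.191 to 5.57%). In both mice the share was thus higher without Epcam at equal depth. When the split itself was made on the thinned cells, Zeb2 (adjusted p = 0.038) and Prrx1 (0.038) passed and Zeb1 (0.096) did not. Without the mouse block only Zeb2 passed (0.038; Zeb1 0.050, Prrx1 0.058), and DESeq2 did not call Zeb1 (0.054). Without the Epcam-positive sum of mouse 1 the adjusted p was 0.20 for Zeb1, 0.31 for Zeb2 and 0.33 for Prrx1, and without that of mouse 2 it was 0.17, 0.15 and 0.066.

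As a group, cells with Epcam held both luminal and basal transcripts, all 10 genes of the basal list being detected at 5072 and 5065 CPM in sum. UMIs of at least 3 basal genes were found in 96 of 187 and 56 of 130 of these cells. In cells without Epcam the basal list summed to 2275 and 1837 CPM. The cells without Epcam were nearly free of other luminal transcripts and rich in those of fibroblasts. The 9 luminal genes (keratins 7, 8, 18 and 19, claudins, Epcam and Cdh1) summed to 145 and 117 CPM without Epcam and to 11082 and 9967 CPM with it. Krt7 and Krt19 were at 0 there in mouse 1 and Cldn3 and Cdh1 in mouse 2. The 13 fibroblast genes, among them the collagen genes Col1a1, Col1a2 and Col3a1 and the receptor gene Pdgfra, summed to 7419 and 14042 CPM without Epcam and to 652 and 1522 CPM with it, and all 13 were detected in the cells without Epcam of each mouse. UMIs of at least 3 fibroblast genes were found in 34 of 73 and 23 of 37 cells without Epcam and in 26 of 187 and 15 of 130 cells with it. The same was seen in 0 and 2 of the 3496 and 4971 other tumor cells. Of the 10 endothelial genes, 9 were detected in the cells without Epcam of mouse 1, at 136 CPM in all and with Tek at 0, and 10 in those of mouse 2, at 2320 CPM, where 10 of 37 cells held 3 or more of them. The 8 pericyte genes summed to 106 and 831 CPM and the 6 Schwann cell genes to 34.1 and 32.9 CPM without Epcam. Genes of macrophages, T and NK cells and B cells were at or near 0, with at most 25.1 CPM per list in the cells without Epcam, and neutrophil and adipocyte genes were at 0 there. The sort was for live GFP-positive cells negative for CD31 and CD45, which the paper calls epithelial. The paper names a stain for the Epcam protein and none for a fibroblast marker. How transcripts of other cell types came to be in the sorted cells was not tested.

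Zeb2 and Prrx1 were higher in the cells with fibroblast genes on both sides of the Epcam split in each mouse, and Zeb1 was so too, by less among the cells without Epcam of mouse 2. Prrx1 was at 7.44 and 15.8 CPM in cells with Epcam and without fibroblast genes, at 34.6 and 125 CPM in cells with both, and at 174 and 180 CPM in cells with fibroblast genes and without Epcam. Zeb2 was at 20.2 and 20.2 CPM, 78.5 and 130 CPM, and 185 and 208 CPM in the same classes. Zeb1 was at 7.03 and 7.01 CPM, 57.7 and 17.01 CPM, and 61.7 and 101.4 CPM. In each mouse these 3 factors were lowest in the cells with Epcam and no fibroblast genes, with exceptions in mouse 2. There Prrx1 had no UMI in the cells with neither, and Zeb2 was about as low in them, on few UMIs. Snai2 was at 29.3 and 43.8 CPM in the cells with Epcam and no fibroblast genes, at 32.3 and 34.0 CPM in those with both, and at 16.1 and 11.3 CPM in the cells with fibroblast genes and no Epcam, and its order differed between the mice. Snai1 showed no order that both mice shared.

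The remaining cells, with neither Epcam nor UMIs of 3 or more fibroblast genes, were few and shallow (39 and 14 cells, median 3532 and 5829.5 UMIs). Shallow cells miss the limit of 3 genes more easily, and these were not free of fibroblast RNA. Their 13 fibroblast genes summed to 1518 and 104 CPM, against 6.07 and 6.66 CPM in the other tumor cells. In mouse 1 they held Zeb1 at 37.8 CPM (7 UMIs), Zeb2 at 64.8 (12 UMIs), Twist1 at 91.9 (17 UMIs), Prrx1 at 32.4 and Snai2 at 32.4 CPM (6 UMIs each). In mouse 2 they held Zeb1 at 83.6 CPM (8 UMIs), against 101.4 CPM in the cells with fibroblast genes and no Epcam, Zeb2 at 20.9 (2 UMIs), Snai2 at 10.4 (1 UMI) and no UMI of Twist1 or Prrx1, and 10 of these 14 cells carried at least 3 endothelial genes, which summed to 6520 CPM. When cells with fibroblast genes were left out of both sides, the log2 fold change without against with Epcam was 2.88 for Zeb1 (adjusted p = 0.30), 1.07 for Zeb2 (0.81) and 0.88 for Prrx1 (0.94), and 1 gene passed in all, the epithelial surface gene Plet1 (log2 fold change -6.88, adjusted p = 0.048), named here after its value was seen. When cells with genes of any other cell type were left out, 38 and 4 cells without Epcam remained and none of the 4 testable factors passed, with 6 genes passing in all, among them the fibroblast list gene Lum. What part such cells have in the values without Epcam beyond these sums was not tested.

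**Figure D3:**
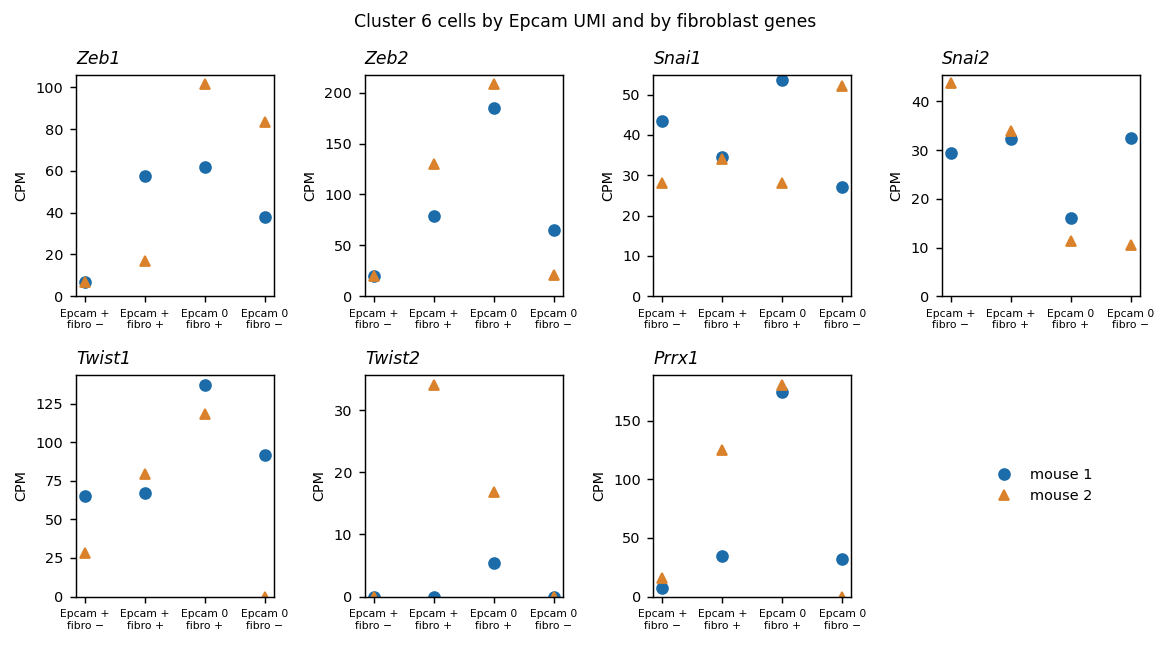
Level (CPM, vertical axes) of each factor in cluster 6 cells divided by an Epcam UMI (Epcam + or Epcam 0) and by UMIs of at least 3 fibroblast genes (fibro + or fibro −), for mouse 1 (circles) and mouse 2 (triangles). Zeb2 and Prrx1 are highest in the cells with fibroblast genes and no Epcam in both mice, where Snai2 is at 16.1 and 11.3 CPM.

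The same cells bear on the comparison of cluster 6 with the other tumor cells. With cells that carried the list of another cell type left out of both sides, all 6 factors were still higher in cluster 6. Shallow cells with UMIs of fewer than 3 genes of such a list stayed in. The log2 fold change moved from 7.32 to 5.68 for Prrx1 (adjusted p = 4.4e-13), from 5.14 to 3.39 for Zeb1 (5.9e-05) and from 3.46 to 2.02 for Zeb2 (5.8e-08). It stood at 2.88 for Twist1 (5.7e-25), at 6.03 for Snai2 (1.0e-55) and at 0.91 for Snai1 (0.0031). For all 6 the adjusted p was smaller than in the main fit, though the mice were the same and the cells fewer. It is thus not a measure of stronger evidence over mice, and why it fell was not tested.

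Cell by cell, the factors kept different company within cluster 6. Of the cluster 6 cells with a Zeb1 UMI, 60.5% (26 of 43, interval 44.4 to 75.0%) and 53.8% (14 of 26, 33.4 to 73.4%) carried fibroblast genes, against 23.1% and 22.8% of all cluster 6 cells. For Zeb2 the share was 50% (33 of 66) and 64.3% (27 of 42), and for Prrx1 60.5% (26 of 43) and 58.3% (21 of 36). For Twist1 it was 32.0% (24 of 75) in mouse 1 and 56.2% (18 of 32) in mouse 2. All 5 cells with a Twist2 UMI carried fibroblast genes. For Snai1 the share was 19.3% and 22.2% and for Snai2 26.4% and 26.1%, close to that of all cells. Endothelial genes were carried by 4.65% (2 of 43) and 23.1% (6 of 26) of the cells with Zeb1, against 1.15% and 7.19% of all cluster 6 cells. The shares in this paragraph were not thinned to equal depth.

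Basal keratins were looked for beside each factor. Of the cluster 6 cells with a Snai2 UMI, 60.4% (32 of 53, interval 46.0 to 73.5%) and 65.2% (15 of 23, 42.7 to 83.6%) also held a UMI of a basal keratin (Krt5 or Krt14), against 31.9% and 44.9% of all cluster 6 cells. An Epcam UMI was found in 81.1% and 87.0% of them. Of the cells with Zeb1, 18.6% and 11.5% held a basal keratin UMI, and of those with Prrx1 9.30% and 36.1%. In mouse 2 the interval for Snai2 includes the share of all cells, and these shares were not thinned to equal depth. By level the mice went apart. In mouse 1 Snai2 was at 58.2 CPM where a basal keratin was detected and at 13.3 CPM elsewhere in cluster 6. In mouse 2 it was at 35.0 CPM (30 UMIs in 15 cells) and 39.5 CPM (29 UMIs in 8 cells).

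**Figure D4:**
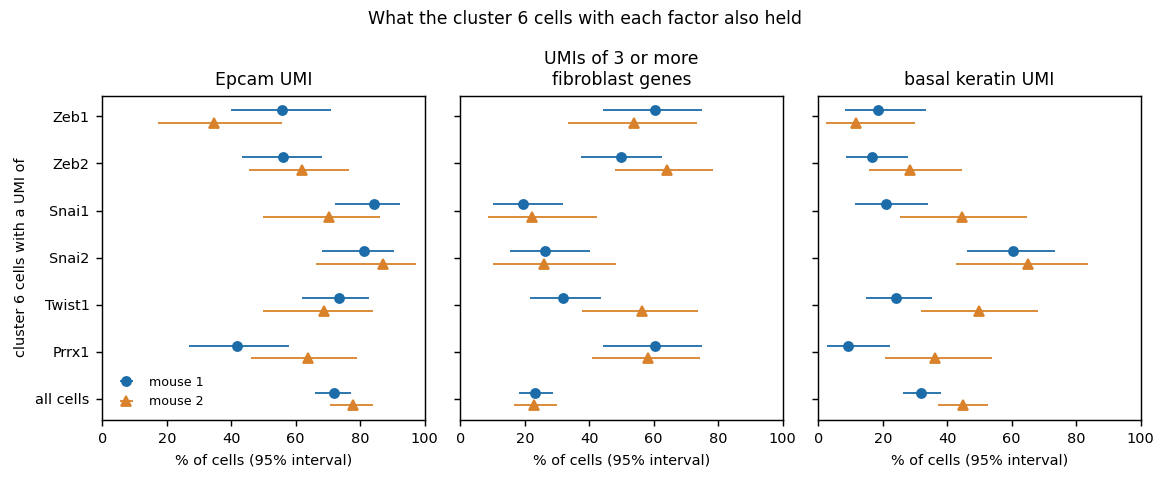
Share of cluster 6 cells (horizontal axes, with exact 95% intervals) that held an Epcam UMI, UMIs of 3 or more fibroblast genes, or a UMI of Krt5 or Krt14, among cells with a UMI of each factor and among all cluster 6 cells, for mouse 1 (circles) and mouse 2 (triangles). Cells with Zeb1, Zeb2 or Prrx1 carry fibroblast genes in 50% to 64.3% of cases, and cells with Snai2 hold a basal keratin UMI in 60.4% and 65.2%.

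Several factors were found in the same cells. UMIs of 3 or more of the 7 factors were found in 15.4% (40 of 260) and 13.8% (23 of 167) of cluster 6 cells, in 1.23% and 0.020% of the other tumor cells and in no cell of cluster 13. In cluster 15 the share was 15.2% (29 of 191) in mouse 1 and 5.88% (1 of 17) in mouse 2, and no cell of cluster 15 carried fibroblast genes. Within cluster 6 it was 24.7% and 32.4% in cells without Epcam and 11.8% and 8.46% in cells with it. Zeb2 was often found with Prrx1 and with Twist1. Of the cells with Prrx1, 58.1% and 63.9% also held Zeb2, and Prrx1 was found in 37.9% and 54.8% of the cells with Zeb2 and in 9.28% and 10.4% of those without. Twist1 was found in 53.0% and 40.5% of the cells with Zeb2 and in 20.6% and 12% of those without. Snai1 and Snai2 met in 8 and 2 cells. These shares were not thinned, and a deeper cell is more likely to hold a UMI of any pair.

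Genes with the most similar pattern were sought over the 36 sums (18 clusters in each of 2 mice) for the 5 factors with at least 200 UMIs. The Pearson r of log2(CPM + 1) is given as a description; sums share a library, and cluster 6 lies at the top for most. Prrx1 was closest to Col5a2 (r = 0.95), a fibrillar collagen chain, followed by Rcn3, Pltp, Serpina3n and the smooth muscle myosin gene Myh11 (0.92). Snai2 was closest to Pltp (0.85), Prrx1 (0.83), the chemokine gene Ccl2, Myh11 and Col5a2 (0.82). For Zeb2 the closest genes were Igsf10 (0.87), Ctnnd2, Gng2 and the smooth muscle genes Cnn1 and Myl9 (0.81), and for Twist1 Igfbp2 (0.80), Maf, Adamts2, Gng2 and Cnn1 (0.76). Snai1 had no close match, the highest being Col11a1 (0.72), Sparcl1, Lrig1, Fgfrl1 and Slc16a1 (0.66). Its r with Zeb2 was 0.21 and with Twist1 0.25.

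A list of 14 epithelial junction genes, which includes Cdh1, was also followed. Whether the factors act on any of these genes in these cells was not tested. The preferred site of Zeb and Snail proteins, CAGGTG or CACCTG on the other strand, was searched in the RefSeq promoter windows (GRCm38.p6, 250 bases before to 50 after a transcript start). A gene was counted if any of its windows held it, and the 2 spellings cannot overlap. Of the 12 junction genes with a window, 9 held the motif, against 22.6% of the 27025 genes with a window (6098 genes). Cdh1 and St14 have no entry in that table. The windows of Epcam, Cldn4, Cldn7 and Crb3, genes of cell adhesion, tight junctions and apical polarity, are shown as junction genes that hold the motif and, Epcam apart, whose UMIs define the split, had few or no UMIs in cells without Epcam. They were chosen with these values known. The motif is in capitals, and each window is given in the direction of its gene.
Epcam (chr17:87635729-87636028, + strand): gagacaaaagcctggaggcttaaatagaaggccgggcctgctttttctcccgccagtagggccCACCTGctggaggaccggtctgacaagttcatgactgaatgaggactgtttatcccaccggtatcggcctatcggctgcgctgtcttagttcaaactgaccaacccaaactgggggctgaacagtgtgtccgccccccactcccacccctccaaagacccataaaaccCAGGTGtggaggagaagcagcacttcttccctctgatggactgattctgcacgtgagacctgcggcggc
Cldn4 (chr5:134946885-134947184, - strand): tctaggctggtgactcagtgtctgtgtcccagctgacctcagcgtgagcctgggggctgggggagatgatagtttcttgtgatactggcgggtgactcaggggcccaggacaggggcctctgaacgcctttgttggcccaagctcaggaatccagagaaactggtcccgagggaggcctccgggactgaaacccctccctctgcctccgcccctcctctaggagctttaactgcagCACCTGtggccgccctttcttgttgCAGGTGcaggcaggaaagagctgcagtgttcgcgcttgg
Cldn7 (chr11:69965171-69965470, + strand): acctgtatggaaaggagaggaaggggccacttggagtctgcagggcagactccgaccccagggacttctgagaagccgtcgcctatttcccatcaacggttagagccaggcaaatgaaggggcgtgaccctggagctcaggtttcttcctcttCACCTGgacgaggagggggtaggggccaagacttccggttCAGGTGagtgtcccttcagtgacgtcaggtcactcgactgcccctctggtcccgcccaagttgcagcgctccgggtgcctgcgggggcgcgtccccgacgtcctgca
Crb3 (chr17:57061981-57062280, + strand): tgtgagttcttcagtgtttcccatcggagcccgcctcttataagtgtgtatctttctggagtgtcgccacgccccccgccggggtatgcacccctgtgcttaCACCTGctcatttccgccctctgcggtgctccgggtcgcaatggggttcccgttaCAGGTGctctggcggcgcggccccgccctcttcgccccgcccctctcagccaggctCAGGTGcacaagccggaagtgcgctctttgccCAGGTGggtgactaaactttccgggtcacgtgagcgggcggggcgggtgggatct

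The windows shown of Epcam, Cldn4 and Cldn7 hold the motif in 2 places each and that of Crb3 in 4. A second window of Cldn7, at another transcript start, holds none. Among the factors themselves, the windows of Zeb2, Twist1, Twist2 and Prrx1 do not hold it and that of Snai1 does once. A match is a description of letters and not evidence of binding.

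Junction transcripts were lower in cluster 6, and lowest in its cells without Epcam. Against cluster 13, 10 of 14 were lower and 0 higher (median log2 fold change -1.36), led by the claudin gene Cldn4 with 209 and 204 CPM in cluster 6 and 3956 and 3791 CPM in cluster 13. Against the other tumor cells 10 were lower and 1, the desmosomal gene Dsp, was higher (median -1.20). Of all genes tested, 12.1% passed as lower against cluster 13 and 6.63% against the other tumor cells. Cdh1, which encodes E-cadherin, stood at 202 and 279 CPM in cluster 6 and at 344 and 409 CPM in the other tumor cells (log2 fold change -0.70, SE 0.16, adjusted p = 0.017). Within cluster 6, 9 of the 11 tested were lower without Epcam and 0 higher, against 3.60% of all genes tested that passed as lower. Epcam, the gene of the split, is itself on this list, and cells without it were nearly free of luminal transcripts. The split thus fixes much of this count in advance. Cdh1 had 2 UMIs in mouse 1 and 0 in mouse 2 without Epcam, and 240.8 and 336 CPM with it. Cldn7 stood at 1.79 and 11.0 CPM without Epcam and at 405 and 390 with it. Crb3 and Ocln had no UMI without Epcam and were at least 20.5-fold and 7.84-fold lower there. The median was -5.25, or -4.36 with these 2 at their bounds. Against cluster 13, 0 were lower without the cluster 6 sum of mouse 2 and 6 without that of mouse 1. With the other tumor cells, 5 were lower without the mouse block, and 4, 3, 2 and 3 without the cluster 6 sums of mice 1 and 2 and the other-cell sums of mice 1 and 2. In the Epcam split 6 were lower without the block, 0 without the Epcam-positive sum of mouse 1 and 3 without that of mouse 2. Of the 11, edgeR called 0 once cells with fibroblast genes were left out, with a median of -3.95.

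Many epithelial transcription factors and splicing regulators were lower in cluster 6. Of 14 genes, 8 were lower and 1 higher in cluster 6 than in the other tumor cells (median log2 fold change -0.87), and 8 of 13 tested were lower and 1 higher against cluster 13 (median -1.13). Of all genes tested, 6.63% passed as lower against the other tumor cells and 12.1% against cluster 13. Elf5, a factor of luminal progenitors, stood at 43.4 and 17.6 CPM in cluster 6 and 158 and 127 CPM in the other tumor cells. Foxa1, a pioneer factor of hormone-sensing luminal cells, stood at 7.04 and 6.92 CPM in cluster 6 against 99.2 and 121 CPM in cluster 13. The exception in both was Klf4, at 458 and 281 CPM in cluster 6 and 98.4 and 86.7 CPM in the other tumor cells. Within cluster 6, where 3.60% of all genes tested passed as lower, 5 of the 8 tested were lower without Epcam. Cells without Epcam were nearly free of luminal transcripts, so the split fixes much of this count in advance. Among the 5 was the splicing regulator gene Esrp1 with 1 UMI against 179, and Klf4 was higher. The cells without Epcam held 557897 and 273244 UMIs of all genes, and those with it 2852692 and 1317007. The numbers of genes passing in this list rest on single sums. With the other tumor cells as the other side, 1 was lower without the mouse block, 1 without the cluster 6 sum of mouse 1, 2 without that of mouse 2, 1 without the other tumor cells of mouse 1 and 0 without those of mouse 2. Against cluster 13, 3 were lower without the cluster 6 sum of mouse 1, 0 without that of mouse 2 and 4 without the cluster 13 sum of mouse 1. In the Epcam split 3 were lower without the block, 2 without the Epcam-negative sum of mouse 1, 0 without either Epcam-positive sum and 0 of 7 once cells with fibroblast genes were left out.

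Mesenchymal genes were higher in cluster 6. Of 15, 13 were higher in cluster 6 than in the other tumor cells and 0 lower (median log2 fold change 5.63), and 11 of 14 tested were higher against cluster 13 (median 4.25). Of all genes tested, 12.1% passed as higher against the other tumor cells and 16.3% against cluster 13. Sparc, a matrix protein gene, stood at 2517 and 2295 CPM in cluster 6 and at 40.1 and 4.72 CPM in the other tumor cells. Mmp3, a matrix metalloproteinase gene, had no UMI in cluster 13 and was at least 215.5-fold higher in cluster 6. Within cluster 6, 10 of 15 were higher without Epcam and 0 lower (median 1.78), against 6.43% of all genes tested that passed as higher. Fibronectin (Fn1) stood at 1791 and 1702 CPM without Epcam and 157 and 247 CPM with it. Against cluster 13, 0 were higher without the cluster 6 sum of mouse 2, and in the Epcam split 5 were higher without the block and 0 without either Epcam-positive sum. None of the 14 testable genes passed once cells with fibroblast genes were left out, with a median of 0.94.

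Other EMT-associated transcription factors were mixed. Against the other tumor cells 8 of 16 tested were higher and 1 lower (median log2 fold change 1.11), and against cluster 13 6 of 11 were higher and 4 lower (median 1.24). Of all genes tested, 12.1% passed as higher and 6.63% as lower against the other tumor cells. Against cluster 13 these shares were 16.3% and 12.1%. Runx2, a factor of bone and mesenchyme, stood at 36.9 and 18.9 CPM in cluster 6, 4.54 and 4.46 in the other tumor cells and 0.820 and 2.07 in cluster 13. Prrx2, the paralog of Prrx1, stood at 9.68 and 8.80 CPM in cluster 6 and had 1 UMI in cluster 13. Prrx2 was at 52.0 and 21.96 CPM without Epcam and 1.40 and 6.07 CPM with it (log2 fold change 3.66, SE 0.74, adjusted p = 0.0089). Tcf4 and Id3 were also higher without Epcam, 3 of 9 tested in all (median 0.34), against 6.43% of all genes tested. Of the 8 genes testable once cells with fibroblast genes were left out, 0 were higher without Epcam, with a median of 0.17. Against cluster 13, 2 were higher and 0 lower without the cluster 6 sum of mouse 1, 0 either way without that of mouse 2, 3 and 0 without the cluster 13 sum of mouse 1, and 4 and 2 without that of mouse 2. Set against the other tumor cells, 2 were higher without the mouse block, 4 without the cluster 6 sum of mouse 1, 1 without that of mouse 2, 1 without the other tumor cells of mouse 1 and 0 without those of mouse 2. In the Epcam split 0 were higher without the block, 1 without the Epcam-negative sum of mouse 2 and 0 without either Epcam-positive sum. Id2 turned between the comparisons, at 56.3 and 56.6 CPM in cluster 6, 24.6 and 20.3 in cluster 13 and 82.0 and 79.8 in the other tumor cells.

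Transforming growth factor beta (TGF-beta) and activin genes, act upstream of several of the factors. Against cluster 13, 4 of 14 were higher and 0 lower, where 16.3% of all genes tested were higher, the ligand gene Tgfb2 at 119 and 84.3 CPM in cluster 6 and 12.3 and 13.7 in cluster 13. Against the other tumor cells 5 of 14 were higher and 0 lower, where 12.1% of all genes were higher, with the ligand gene Tgfb1 at 46.0 and 92.4 CPM against 23.9 and 37.2 and the coreceptor gene Tgfbr3 at 59.2 and 64.1 CPM against 20.3 and 12.7. The medians were -0.13 and 0.41. Against cluster 13, 0 were higher without the cluster 6 sum of mouse 2 and 2 with any other sum left out (1 was lower without the cluster 13 sum of mouse 1). For the other tumor cells, 2 were higher without the mouse block, 1 without the other tumor cells of mouse 1 and 0 with any other sum left out. Within cluster 6 edgeR called 0 of 14 (5 at an unadjusted p under 0.05, and 0 by DESeq2), with the inhibitory Smad7 at 192 and 248.9 CPM without Epcam and 188 and 282 CPM with it.

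Corepressors and bHLH partners, are proteins that these factors work with. Against cluster 13, where 28.4% of all genes passed, 1 of 13 did, the histone demethylase gene Kdm1a, at 148 and 152 CPM in cluster 6 and 287 and 211 CPM in cluster 13. Against the other tumor cells, where 18.8% passed, 1 of 13 did, the Twist partner Tcf12, at 78.3 and 94.95 CPM in cluster 6 and 49.9 and 54.8 in the other tumor cells. Both calls were lost with any 1 sum left out. Within cluster 6, where 10.0% of all genes passed, edgeR called 0 of 12 (0 at an unadjusted p under 0.05, and 0 by DESeq2). The medians were -0.081, -0.10 and 0.13.

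**Figure D5:**
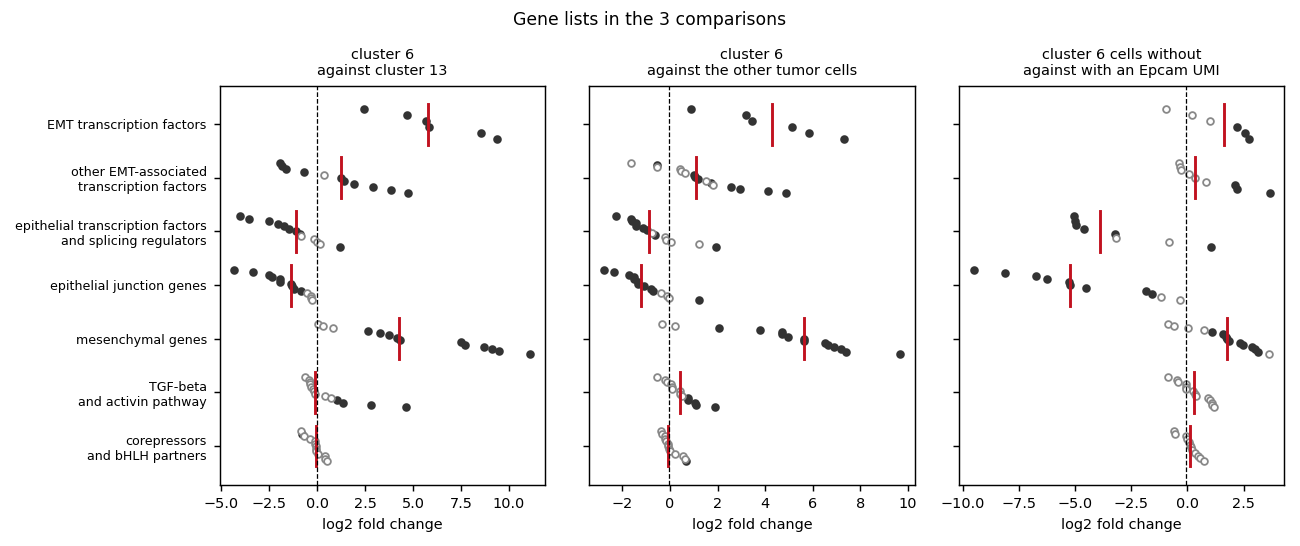
Log2 fold change (horizontal axes) of each tested gene of the 7 lists in the 3 comparisons, with filled points where the adjusted p was under 0.05, the median of the list as a red bar and the median of all genes tested as a dashed line. The medians of the EMT factors and mesenchymal genes lie to the right of the dashed line in each comparison and that of junction genes to the left.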

How the data were processed

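Single-cell RNA was measured in GFP-sorted tumor cells of 2 mice (10x 3' v3.1). Per gene and barcode, the deposited files of the authors give UMI counts without normalization (Cell Ranger 6.0.1, mm10; Seurat 4.0.3 in the submitters' processing notes), and their annotation gives each cell's cluster. The authors also deposited, per cell, the mitochondrial fraction, VAM signature values as a fraction from 0 to 1 made from log-normalized counts, and the distance score behind each; none was used. The authors removed doublets and low-quality, lymphoid and myeloid cells before clustering. Barcodes without annotation entered no comparison.

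UMIs were summed per mouse and side (4 sums, 1 residual degree of freedom) and tested with edgeR 4.0.16 (R 4.3.3; filterByExpr, TMM, quasi-likelihood, mouse as a block) with Benjamini-Hochberg adjustment over all genes at 0.05. Epcam was left out of the table of its own split. The pairing comes from the animal; deviations of the mice correlated across genes at r = 0.139, 0.335 and 0.333. The SE was taken as the size of the log2 fold change divided by the root of the F statistic. Fits with 1 sum left out had no block. Scripts were tested on simulated data. DESeq2 1.42.0 and the other alternatives are given at the end. A cell carries a marker list if 3 or more genes of the list have UMIs in it. Cells were thinned with random seed 1.

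The factors were named in every comparison. From each other list, those that passed were ranked by size of change and up to 4 could be named; where none passed, the 2 with the most UMIs were. Cdh1 against the other tumor cells, Id2, Dsp, Plet1, Lum and the Epcam split of Klf4 were named once their values were known. Values of 2 single genes of the lists are not reported here. The factors and lists were chosen with earlier results of these data known.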

Additional observations from a re-analysis of the deposited data

Results flagged for a closer look

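Barcodes that the authors did not annotate (2346 in mouse 1 and 2208 in mouse 2, with 4510440 and 4557239 UMIs) were outside every comparison, and they held UMIs of several factors above the limit of 3 UMIs over the group. In mouse 1 these were Zeb2 at 31.7 CPM, Snai1 at 8.20, Zeb1 at 4.66, Twist1 at 2.88 and Snai2 at 0.887 CPM. In mouse 2 they were Zeb2 at 100.1 CPM, Zeb1 at 23.5, Snai1 at 7.46 and Twist1 at 1.10 CPM. For comparison, all annotated cells held 15.4 and 2.49 CPM of Zeb2 and 2.06 and 0.983 CPM of Zeb1. No cause was tested.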

How the results depend on the processing

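The counts of genes passing were 2782 for cluster 6 against cluster 13, 2693 against the other tumor cells and 810 for cluster 6 cells without against with Epcam. DESeq2 gave 997 and 327 for the first and the last, cells thinned to 2000 UMIs gave 1080, 1679 and 193, and leaving out cells with genes of other cell types gave 6 for the Epcam split. Leaving out only cells with fibroblast genes, an alternative added after seeing the data, gave 1. Without the replicate block, which pairs sums of the same mouse, the counts against the other tumor cells and by Epcam were 967 and 156. With 1 sum left out at a time they ranged from 0 to 1387, from 525 to 973 and from 0 to 627. The edgeR counts of 0 came without the cluster 6 sum of mouse 2 (3053 genes at an unadjusted p under 0.05) and without the Epcam-positive sum of mouse 1 (693). Averaged over cells, Twist1 was highest in cluster 15, and the number of factors highest in cluster 6 went from 7 to 6. At 2000 UMIs per cell cluster 6 held the highest share of cells for 6 factors, and at 5000 for 5. With 2 mice, factors of few UMIs are measured coarsely. Twist2 did not pass the low-count filter. Without that filter it was higher in cluster 6 than in the other tumor cells (log2 fold change 6.46, adjusted p = 0.0047), on 11 UMIs against 3. Of the alternative values of single genes, 585 stayed on their side of the threshold and 215 no longer passed, with the genes not reported here left out of these counts. The causes of these differences were not tested.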
